A study of Homo sapiens with 30 samples.

Results

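The mean BMP7/vehicle log ratio of ID1, ID2, ID3 and SMAD7 was near 0 after 30 min of BMP7 and lay higher after 1 h in 4 or 5 of 5 breast cancer cell lines, although no gene passed the adjusted threshold. The log ratios of the classical immediate early genes FOS, JUN, EGR1, DUSP1 and MYC went in different directions in different lines. The comparison uses the 5 arrays taken after 1 h and the 5 arrays taken after 30 min, which are 10 of the 30 arrays of the series, with each 1 h array paired with the 30 min array of the same cell line. Its genes are 153 immediate response genes in 7 lists, matched by the gene name in the files. Of these, 152 had a probe and 134 were measured well above background in both channels on both arrays of at least 3 lines, and 102 of them in all 5 lines. The remaining 19 genes, among them NOG, GREM1 and SNAI2, had too little signal or no probe.

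Each array compared a pair of samples of the same line, namely cells given recombinant human BMP7 protein (50 ng/ml), labeled with Cy5, and vehicle-treated cells kept for the same time, labeled with Cy3. The lines were HCC1954, MDA-MB-231, MDA-MB-361, T-47D and ZR-75-30, all breast cancer cell lines without a genetic change made for the study. MDA-MB-231 was grown in 1% and T-47D in 5% fetal bovine serum, so serum differs between the lines but not between the arrays of a line. RNA of each sample came from a pool of 3 cultures. Each line and time therefore has 1 array, and the spread is that between lines. By the labels, no array had its dyes swapped. A constant dye effect of a probe cancels in the difference between the times but not in a log ratio at 1 time.

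BMP7 is a secreted ligand of the TGF-beta superfamily. It binds type I and type II receptor kinases, which phosphorylate SMAD1, SMAD5 and SMAD9; with SMAD4 these enter the nucleus and bind regulatory DNA. The ID genes, whose products block basic helix-loop-helix transcription factors, and the inhibitory SMAD6 and SMAD7, which feed back on the receptors, are direct targets. Immediate early genes such as FOS and EGR1 are transcribed without new protein synthesis after growth factors, serum or stress, largely through ERK and the serum response factor, and their transcripts decay quickly.

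The promoters of the genes on which the comparison turns are shown first, so that the SMAD and serum response factor motifs near their start can be seen. They are the 250 bases before the transcription start from RefSeq (GRCh38.p14), written in the direction of transcription, with capitals for the SMAD motif GTCTG on either strand, the palindromic GC-rich SMAD motif GGCGCC and the CArG box of the serum response factor. Within these windows no matches overlapped.
ID1, chr20:31605039-31605288, plus strand: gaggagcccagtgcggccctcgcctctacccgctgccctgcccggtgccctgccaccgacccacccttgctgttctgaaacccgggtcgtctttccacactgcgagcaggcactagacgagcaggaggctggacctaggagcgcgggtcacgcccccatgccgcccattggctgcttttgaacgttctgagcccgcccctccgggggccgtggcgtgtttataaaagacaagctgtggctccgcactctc
ID2, chr2:8681806-8682055, plus strand: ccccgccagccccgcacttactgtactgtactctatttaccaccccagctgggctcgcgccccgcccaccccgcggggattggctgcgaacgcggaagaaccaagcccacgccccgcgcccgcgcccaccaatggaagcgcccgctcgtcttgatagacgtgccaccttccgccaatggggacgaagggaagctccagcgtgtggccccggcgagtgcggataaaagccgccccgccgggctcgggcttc
ID3, chr1:23559502-23559751, minus strand: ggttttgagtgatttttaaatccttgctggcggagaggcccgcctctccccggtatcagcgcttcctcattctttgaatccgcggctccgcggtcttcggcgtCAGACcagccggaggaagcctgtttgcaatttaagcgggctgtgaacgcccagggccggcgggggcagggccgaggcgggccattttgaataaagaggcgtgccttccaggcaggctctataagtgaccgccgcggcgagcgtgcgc
SMAD7, chr18:48950966-48951215, minus strand: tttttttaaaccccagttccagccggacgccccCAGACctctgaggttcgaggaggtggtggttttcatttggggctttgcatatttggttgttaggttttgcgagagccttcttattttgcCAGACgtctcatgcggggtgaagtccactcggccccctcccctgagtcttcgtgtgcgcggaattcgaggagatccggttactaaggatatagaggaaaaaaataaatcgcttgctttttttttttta
FOS, chr14:75278578-75278827, plus strand: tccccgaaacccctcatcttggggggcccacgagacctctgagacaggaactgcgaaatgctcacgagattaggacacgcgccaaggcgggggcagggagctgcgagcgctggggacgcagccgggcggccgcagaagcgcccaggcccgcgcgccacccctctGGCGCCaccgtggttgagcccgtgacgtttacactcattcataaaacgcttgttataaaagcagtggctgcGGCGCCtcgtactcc
EGR1, chr5:138465229-138465478, plus strand: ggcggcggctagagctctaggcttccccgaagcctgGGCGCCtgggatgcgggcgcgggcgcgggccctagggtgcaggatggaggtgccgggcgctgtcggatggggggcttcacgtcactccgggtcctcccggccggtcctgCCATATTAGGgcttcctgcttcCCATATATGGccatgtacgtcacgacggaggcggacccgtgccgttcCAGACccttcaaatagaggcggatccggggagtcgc

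Neither SMAD motif was found in the windows of ID1 and ID2, GTCTG was found once in ID3 and 2 times in the first of the 3 SMAD7 promoters listed, and FOS held GGCGCC 2 times. EGR1 held each SMAD motif once and the CArG box 2 times. Over all 35116 promoter windows of this length, 38.0% held GTCTG, 16.4% held GGCGCC and 1.16% held a CArG box. A motif match is a description of these letters, and a missing match says nothing on sites elsewhere.

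The 10 arrays had 59.4% to 66.3% of the probes well above background in both channels and between 106 and 292 spots marked as outliers. They lay on 7 slides and were scanned in 2 periods. Of the 30 min arrays, those of ZR-75-30, HCC1954 and MDA-MB-231 belonged to the later period, and all other arrays to the earlier one, so 2 pairs lay within 1 scan period, each also on a single slide, and 3 pairs spanned both. In the vehicle channel the epithelial markers EPCAM, KRT8, KRT18, KRT19 and CDH1 were above background on 10 of 10 arrays. VIM was highest in MDA-MB-231, ERBB2 was lower in MDA-MB-231 and T-47D than in the other lines, and ESR1 was not well above background on either array of MDA-MB-231. Of the markers of other cell types given here, PTPRC and HBB were above background on 0 arrays, CDH5 on 2, PECAM1 on 3 and the brightest CD3E probe on 10. Both arrays of HCC1954 showed CDH5 and PECAM1 signal. The part of other cells in any result was not tested, and in such samples fewer cells and less RNA per cell cannot be told apart.

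Across probes, the log ratios of the 30 min array of MDA-MB-361 correlated negatively with those of the 30 min arrays of the other lines (Pearson's r from -0.51 to -0.12), which correlated positively among themselves (r from 0.49 to 0.62). Since the labels give the dyes of every array, its direction was kept. That array correlated positively with the 1 h array of its own line (r = 0.38). Whether its dyes were exchanged was not tested, and the values with its sign turned are given below for the results that rest on it. The 30 min and 1 h arrays of the same line correlated at r from 0.38 to 0.61. The differences between the times in T-47D correlated negatively with those in the other lines (r from -0.41 to -0.22), and the differences among the other lines at r from -0.01 to 0.48. These are correlations across probes, which are not independent replicates.

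Genome-wide, 24226 probes were tested for a difference between 1 h and 30 min, and 0 of them (0%) passed an adjusted p of 0.05 with limma in either direction. At an unadjusted p under 0.05, 669 probes (2.76%) were found, of which 411 (1.70%) were higher and 258 (1.06%) lower at 1 h. The lowest adjusted p was 1.00, and none passed under any of the 21 alternatives, the turned 30 min array of MDA-MB-361 included. With 5 pairs, an exact sign-flip permutation test cannot give a two-sided p below 0.0625. The differences of single genes are therefore given below as sizes with their errors and as counts of lines, and none of the immediate response genes passed the adjusted threshold.

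Of the 20030 probes measured in all 5 lines, the log ratio was higher at 1 h in 5 of 5 lines for 443 (2.21%) and lower in 5 of 5 lines for 381 (1.90%). Of the 102 immediate response genes measured in all lines, 7 were higher in 5 of 5 lines (6.86%), namely ID2, SMAD7, GATA3, RUNX1, KLF13, GADD45B and BCL3, and SPRY2 and BTG1, 1.96%, were lower in 5 of 5. All 5 values at 1 h exceeded all 5 values at 30 min for 36 probes of the genome-wide set (0.18%), and ID2 and SMAD7 were among these. With the 30 min array of MDA-MB-361 turned, ID2, SMAD7, GATA3 and RUNX1 were still higher in 5 of 5 lines, as were CSRNP1 and CYR61, while KLF13, GADD45B and BCL3 were not, and PHLDA2 in place of SPRY2 and BTG1 was lower in 5 of 5. ID2 and SMAD7 were still without overlap, as was CSRNP1. With that array turned, 2108 of 24226 probes had an unadjusted p under 0.05 with limma. The shares of all probes for the other turned counts are not given here, and 2.21% and 0.18% do not apply to them. With all arrays in their labeled direction, no immediate response gene showed the opposite separation, which was seen for 0.15% of probes. At an unadjusted p under 0.05 in the limma fit, 8 of 134 immediate response genes were found (5.97%), all with the higher log ratio at 1 h. They were ID1, ID2, ID3, SMAD7, DLX3, BCL3, CXCL3 and HBEGF.

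ID1, ID2 and ID3 are the best known direct transcriptional targets of BMP signaling. The log2 BMP7/vehicle ratio of ID1 at 30 min was 0.12 for HCC1954, 0.09 for MDA-MB-231, -0.35 for MDA-MB-361, 0.07 for T-47D and 0.27 for ZR-75-30. At 1 h it was 0.09, 1.07, 0.57, 0.22 and 0.31 in the same order of lines. ID1 was thus highest at 1 h in MDA-MB-231 and MDA-MB-361, whereas the values of HCC1954 and ZR-75-30 at both times were close to each other. The mean went from 0.04 ± 0.23 (SD, n = 5) to 0.45 ± 0.39 (SD, n = 5). The paired difference was 0.41 (SE 0.16, 95% interval 0.05 to 0.78, adjusted p = 1.00 with limma). Without MDA-MB-231 the difference was 0.27. With the 30 min array of MDA-MB-361 turned, its ID1 log ratio at 30 min was 0.35, the difference in that line 0.22 in place of 0.93, and the mean difference 0.27.

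ID2 had the most even difference of the 3 ID genes. At 30 min its log2 ratio was 0.05 for HCC1954, 0.10 for MDA-MB-231, -0.01 for MDA-MB-361, 0.14 for T-47D and 0.11 for ZR-75-30. At 1 h the log2 ratios of ID2 were 0.27, 0.90, 0.32, 0.45 and 0.40. Every 1 h value of ID2 lay above every 30 min value, and MDA-MB-231 stood highest at 1 h. The paired difference of ID2 was 0.39 (SE 0.10, 95% interval 0.16 to 0.62, adjusted p = 1.00 with limma), a 1.31-fold higher ratio at 1 h. The other ID2 probe tested was also higher in 5 of 5 lines, by a mean of 0.21.

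ID3 was near 0 in all lines at 30 min, with log2 ratios of -0.06 for HCC1954, 0.10 for MDA-MB-231, -0.03 for MDA-MB-361, -0.13 for T-47D and -0.08 for ZR-75-30. At 1 h they were 0.27, 0.48, 0.57, -0.24 and 0.32. T-47D was thus the exception, with a lower log ratio at 1 h, and the other lines lay above all 30 min values. The paired difference of ID3 was 0.32 (SE 0.11, 95% interval 0.07 to 0.57, adjusted p = 1.00 with limma). ID4 was measured in 4 lines and was higher in 2 of these, with a mean difference of 0.16 (SE 0.17). With the 30 min array of MDA-MB-361 turned, ID4 was higher in 1 of 4 lines and its mean was -0.17, so ID4 has no settled direction.

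SMAD7 and SMAD6 encode the inhibitory SMADs of the feedback loop. The log2 ratio of SMAD7 at 30 min was 0.22 for HCC1954, -0.06 for MDA-MB-231, -0.15 for MDA-MB-361, 0.12 for T-47D and 0.00 for ZR-75-30. At 1 h it was 0.31, 0.30, 0.22, 0.63 and 0.39. The 1 h values and the 30 min values of SMAD7 did not overlap, although the margin between the highest 30 min value, of HCC1954, and the lowest 1 h value, of MDA-MB-361, was small. The paired difference was 0.34 (SE 0.09, 95% interval 0.14 to 0.55, adjusted p = 1.00 with limma), or 1.27-fold. SMAD6 was measured in 4 lines, with differences of 0.24 for HCC1954, -0.14 for MDA-MB-361, 0.25 for T-47D and 0.45 for ZR-75-30. Its mean difference of 0.20 (SE 0.12) had a 95% interval of -0.07 to 0.47.

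**Figure D1:**
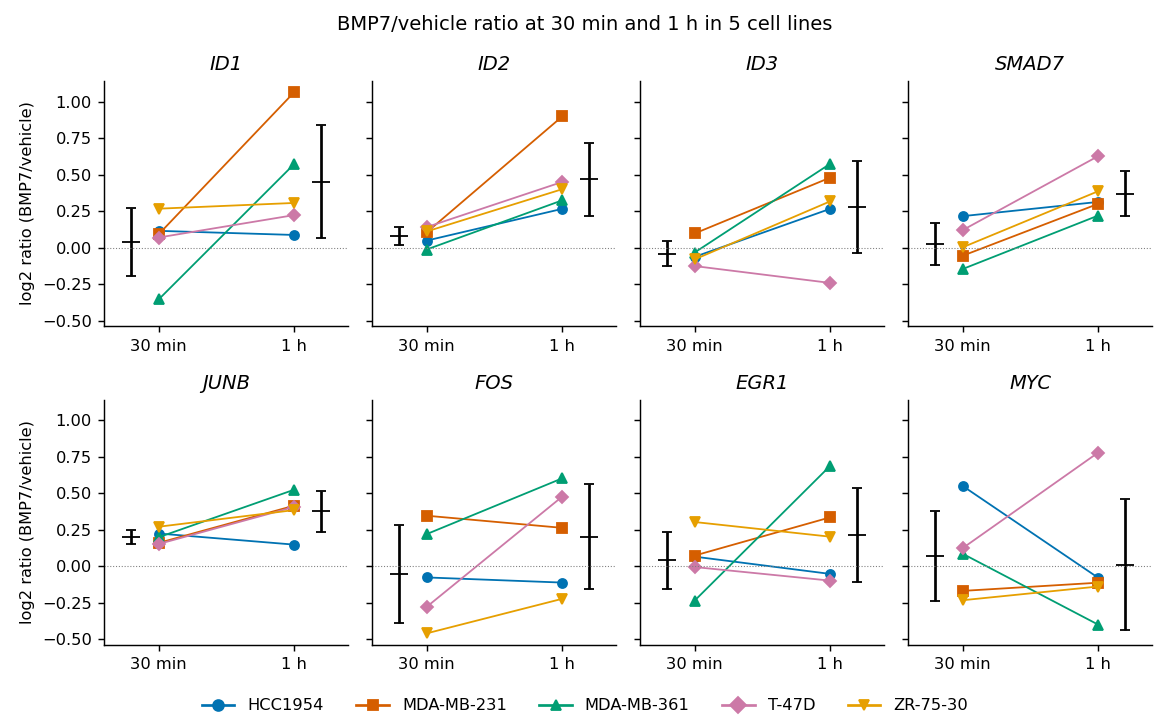
Log2 BMP7/vehicle ratio (y axis) at 30 min and 1 h (x axis) of 8 genes, with 1 colored line per cell line and the mean with SD over 5 lines in black. All 5 lines of ID2 and SMAD7 run upwards, ID1 is steep in MDA-MB-231 and MDA-MB-361, JUNB lies above 0 at both times, and the lines of FOS, EGR1 and MYC cross.

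The means of the 2 pairs scanned within 1 period, MDA-MB-361 and T-47D, had the same sign as those of the 3 pairs that spanned both. For ID1 the mean difference was 0.54 in the 2 pairs within a period and 0.33 in the 3 others. For ID2 these means were 0.32 and 0.43, for ID3 0.25 and 0.37, and for SMAD7 0.44 and 0.28. Within a period, however, ID3 was higher at 1 h in MDA-MB-361 and lower in T-47D. The ID1 difference of MDA-MB-361 was 0.22 with its 30 min array turned. The part of the scan period was not tested. Over all 22 alternatives computed for each of these genes the differences of ID1, ID2, ID3 and SMAD7 stayed above 0, with adjusted p-values from 0.131 to 1.00.

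The later time points put the size of the 1 h values into context. At 3 h the mean log2 ratio over the 5 lines was 1.16 ± 0.60 (SD, n = 5) for ID1, 1.44 ± 0.38 for ID2 and 0.94 ± 0.48 for ID3, and at 24 h it was 1.24 ± 0.76, 1.36 ± 0.73 and 0.94 ± 0.82. At 1 h the ID genes were thus between their 30 min and 3 h means. SMAD7 had at 3 h a mean of 0.34 ± 0.14 (SD, n = 5), close to its 1 h mean of 0.37 ± 0.16, and 0.17 ± 0.19 at 24 h. No test was made between these times and 1 h.

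**Figure D2:**
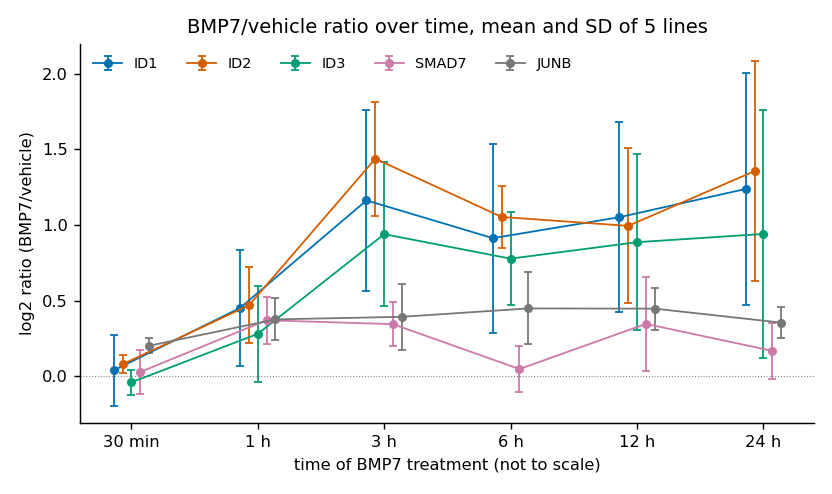
Mean log2 BMP7/vehicle ratio (y axis) with the SD over 5 lines as bars at the 6 time points (x axis, not to scale) for ID1, ID2, ID3, SMAD7 and JUNB. The ID genes are near 0 at 30 min, between 0.28 and 0.47 at 1 h and around 1 from 3 h on, while SMAD7 stands at 0.37 at 1 h and 0.34 at 3 h.

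The BMP-SMAD list as a whole was less even than these genes. Of its 40 genes, 32 were tested, 22 had a higher mean log ratio at 1 h and 10 a lower one, and the median difference was 0.08, against 0.01 over all probes. The median fell to 0.040 without MDA-MB-361 and was -0.010 with the 30 min array of that line turned, so it has no settled sign. In the 21 genes measured in all lines, 4 were higher in 5 of 5 lines (19.0%) and 0 were lower in 5 of 5. GATA3, a transcription factor of luminal cells, differed by 0.06 for HCC1954, 0.14 for MDA-MB-231, 0.05 for MDA-MB-361, 0.33 for T-47D and 0.37 for ZR-75-30. Its mean difference was 0.19 (SE 0.09). RUNX1, a core binding factor, was higher by 0.02 to 0.25, with a mean of 0.13 (SE 0.08). The other RUNX1 probe was higher in 4 of 5 lines, by a mean of 0.21. HES1, a basic helix-loop-helix repressor, was higher in 4 of 5 lines by a mean of 0.17 (SE 0.11), with HCC1954 at -0.16. The brightest DLX3 probe, measured in 3 lines, was higher by 0.36, while the other DLX3 probe was lower by 0.15, so DLX3 has no settled direction.

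**Figure D3:**
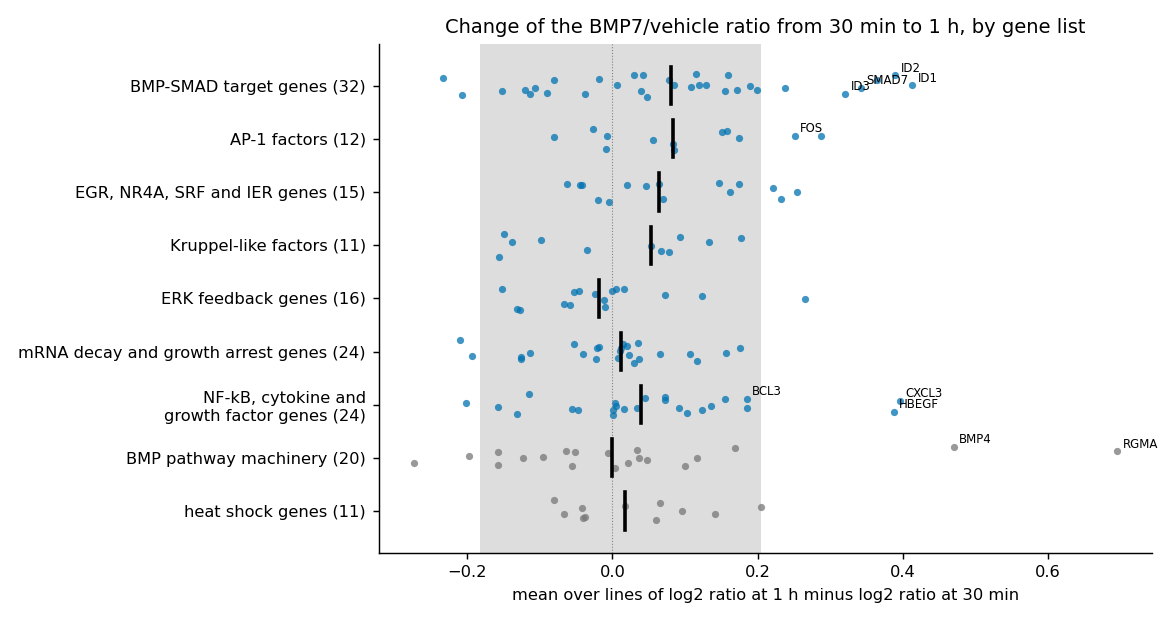
Mean over lines of the log2 ratio at 1 h minus that at 30 min (x axis) for each tested gene (points) in 9 lists (rows, with the number tested), with the list's median as a black bar and the range of the 5th to 95th percentile over all probes in gray. ID1, ID2, ID3 and SMAD7 lie to the right of the gray range, and the medians of all lists lie between -0.02 and 0.08.

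AP-1 factors are dimers of FOS and JUN family proteins. Of the 12 tested, 8 had a higher mean log ratio at 1 h and 0 of the 11 measured in all lines were higher in 5 of 5. JUNB and JUND were the AP-1 genes that lay above 0 on all 10 arrays. At 30 min the log2 ratio of JUNB was 0.22 for HCC1954, 0.16 for MDA-MB-231, 0.20 for MDA-MB-361, 0.15 for T-47D and 0.27 for ZR-75-30, and at 1 h it was 0.15, 0.41, 0.52, 0.41 and 0.38. The difference of JUNB was 0.17 (SE 0.09, 95% interval -0.03 to 0.38), with HCC1954 lower at 1 h. The other JUNB probe gave a mean of 0.21, with 0.15 for HCC1954 and -0.38 for T-47D. The line that went lower thus differed between the probes. With the 30 min array of MDA-MB-361 turned, JUNB was at -0.20 on it. JUNB, JUND, SRF, SPRED2 and VEGFA were above 0 on all 10 arrays, 5 of 102 genes, and 1.90% of all probes measured in all lines were so. None of the 102 genes was below 0 on all 10 arrays, as were 1.79% of probes. For such genes a BMP7 effect and a constant dye effect cannot be told apart at a single time.

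FOS at 30 min had log2 ratios of -0.08 for HCC1954, 0.35 for MDA-MB-231, 0.22 for MDA-MB-361, -0.28 for T-47D and -0.46 for ZR-75-30. At 1 h FOS had -0.11, 0.26, 0.60, 0.48 and -0.22. The groups overlapped almost entirely, and the largest difference, 0.76, was that of T-47D. The mean difference of FOS was 0.25 (SE 0.13, 95% interval -0.03 to 0.53). It was 0.57 in the 2 pairs within a scan period and 0.04 in the 3 pairs that spanned both. JUN had differences of 0.13 for HCC1954, -0.01 for MDA-MB-231, -0.45 for MDA-MB-361, 0.62 for T-47D and 0.13 for ZR-75-30, with a mean of 0.09 (SE 0.14, 95% interval -0.22 to 0.39). Without T-47D the mean of JUN was -0.05, and with the 30 min array of MDA-MB-361 turned it was 0.40. The brightest probe of ATF3, a stress-induced factor of the same family, differed by -0.42 to 0.25 with a mean of -0.01 (SE 0.11), and its other probe by a mean of 0.29.

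Among the EGR, NR4A, SRF and IER genes, 15 were tested, with a median difference of 0.06, which was 0.026 without MDA-MB-361 and 0.080 with its 30 min array turned. EGR1, a zinc finger factor of the ERK response, had log2 ratios at 30 min of 0.07 for HCC1954, 0.07 for MDA-MB-231, -0.24 for MDA-MB-361, -0.01 for T-47D and 0.30 for ZR-75-30, and at 1 h of -0.05, 0.33, 0.69, -0.10 and 0.20. EGR1 was lower at 1 h in 3 lines and higher by 0.92 for MDA-MB-361, so that its mean of 0.17 (SE 0.15, 95% interval -0.16 to 0.51) became -0.01 without that line and 0.08 with its 30 min array turned. IER2 differed by 0.32 for HCC1954, -0.06 for MDA-MB-231, 0.42 for MDA-MB-361, 0.42 for T-47D and 0.01 for ZR-75-30, with a mean of 0.22 (SE 0.10, 95% interval -0.01 to 0.45), and of 0.08 with the 30 min array of MDA-MB-361 turned. The other IER2 probe was higher in 3 of 5 lines, by a mean of 0.08, with -0.21 for HCC1954 and 0.13 for T-47D. MYC, the growth-promoting factor, differed by -0.63 for HCC1954, 0.06 for MDA-MB-231, -0.49 for MDA-MB-361, 0.66 for T-47D and 0.09 for ZR-75-30. Its mean was -0.06 (SE 0.17, 95% interval -0.44 to 0.31), and the other MYC probe gave 0.23.

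Of the Kruppel-like factors, 6 of 11 had a higher mean at 1 h. KLF10, induced by TGF-beta in many cells, differed by -0.21 for HCC1954, -0.01 for MDA-MB-231, -0.27 for MDA-MB-361, 0.78 for T-47D and 0.10 for ZR-75-30, and its mean of 0.08 (SE 0.15, 95% interval -0.25 to 0.40) rested on T-47D, without which it was -0.10. With the 30 min array of MDA-MB-361 turned it was 0.21. KLF13 was higher in 5 of 5 lines by 0.07 to 0.31, with a mean of 0.18 (SE 0.09), and its other probe was higher in 3 of 5.

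ERK feedback genes encode phosphatases and other inhibitors of the RAS-ERK pathway. This was the list with the fewest genes higher at 1 h, 5 of 16, with a median difference of -0.02. DUSP1, a MAP kinase phosphatase, had log2 ratios at 30 min of 0.45 for HCC1954, 0.24 for MDA-MB-231, 0.26 for MDA-MB-361, 0.18 for T-47D and 0.13 for ZR-75-30, and at 1 h of 0.27, 0.40, -0.11, 0.60 and 0.03. Its means of 0.25 ± 0.12 (SD, n = 5) and 0.24 ± 0.28 (SD, n = 5) differed by -0.01 (SE 0.12, 95% interval -0.28 to 0.26). SPRY2, a receptor tyrosine kinase antagonist, was lower at 1 h in 5 of 5 lines, by a mean of 0.15, with differences from -0.33 to -0.02.

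Of the mRNA decay and growth arrest genes, 14 of 24 had a higher mean at 1 h and the median difference was 0.01. GADD45B, a stress sensor also known as a TGF-beta target, was higher in 5 of 5 lines by 0.02 to 0.29, and its other probe was also higher in 5 of 5, by a mean of 0.23. BTG1, an antiproliferative factor, was lower in 5 of 5 lines with differences from -0.43 to -0.01. For BTG1 the mean difference was -0.03 in the 2 pairs within a scan period and -0.30 in the pairs that spanned both.

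In the NF-kB feedback, cytokine and growth factor list, 18 of 24 genes had a higher mean at 1 h, with a median difference of 0.04. BCL3, a nuclear IkB protein, was below 0 in all lines at 30 min and differed by 0.10 for HCC1954, 0.23 for MDA-MB-231, 0.18 for MDA-MB-361, 0.19 for T-47D and 0.23 for ZR-75-30. Its mean difference of 0.19 had an SE of 0.08 and was also 0.19 in the pairs within and in those across scan periods. With the 30 min array of MDA-MB-361 turned, BCL3 differed by -0.48 in that line and by a mean of 0.05. CXCL3, a neutrophil chemokine, was measured in 3 lines and differed by 0.50 for HCC1954, 0.28 for MDA-MB-231 and 0.41 for MDA-MB-361. The turned array gave CXCL3 a difference of -0.12 in MDA-MB-361 and a mean of 0.22, with 2 of 3 lines higher. HBEGF, an EGF receptor ligand, differed by 0.38 for HCC1954, 0.11 for MDA-MB-231 and 0.67 for T-47D, with a mean of 0.39. Its other probe was measured in 4 lines and differed by 0.53 for T-47D, 0.41 for ZR-75-30, 0.31 for HCC1954 and -0.04 for MDA-MB-231, with a mean of 0.30, so MDA-MB-231 has no settled direction for HBEGF. CYR61, a matricellular protein, differed by 0.37 for HCC1954, 0.17 for MDA-MB-231, -0.09 for MDA-MB-361, 0.32 for T-47D and 0.16 for ZR-75-30, with a mean of 0.19 (SE 0.10, 95% interval -0.03 to 0.40). Its other probes gave means of 0.169 and 0.166 and were higher in 3 and 5 of 5 lines, with 0.17 and 0.04 for MDA-MB-361.

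Over all 134 tested immediate response genes the median difference was 0.03, and 83 genes (61.9%) lay above 0, against 52.6% of all probes. The medians of the single lines were -0.01 for HCC1954, 0.06 for MDA-MB-231, 0.06 for MDA-MB-361, 0.05 for T-47D and 0.00 for ZR-75-30. Of the genes named so far, the mean differences of SMAD6, JUNB and CYR61 became 0.49, 0.25 and 0.37 with the 30 min array of MDA-MB-361 turned, and those of KLF13, GADD45B and SPRY2 became 0.05, 0.07 and -0.01. Only some of the 134 genes had a second tested probe, and in 23 of those genes another probe had the opposite sign. These 23 are a large part of the genes with a second probe and should not be read against all 134. The direction of many genes thus depends on the probe. The median of the Kruppel-like factors was -0.029 without T-47D, that of the ERK feedback genes 0.021 without HCC1954, and that of the decay and arrest genes -0.033 without MDA-MB-361. The 2 lists kept for comparison had medians of 0.00 over 20 genes of the BMP pathway machinery and 0.02 over 11 heat shock genes. In the machinery, RGMA, a BMP co-receptor, was higher at 1 h in 5 of 5 lines by 0.05 to 1.51, and BMP4 differed by 1.63 in HCC1954 and by -0.06 to 0.62 in the other lines. The other RGMA probe, measured in 4 lines, gave a mean of 0.04.

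On single arrays a 2-fold ratio, the threshold of the study for differentially expressed probes (DEPs), was reached by 1 immediate response gene on 1 of the 10 arrays, ID1 in MDA-MB-231 at 1 h. This was 1 of 124 genes measured on that array (0.806%), against 0.0970% of all probes measured there. The share of all probes 2-fold up or down on the other arrays was 0.0552% to 2.68%. No immediate response gene differed 2-fold or more between the times in any line, where 120 to 129 of these genes were measured per line. The share of all probes higher by that much was 0.129% for HCC1954, 0.0219% for MDA-MB-231, 0.0692% for MDA-MB-361, 0.374% for T-47D and 0.472% for ZR-75-30. Lower by that much were, in this order, 0.167%, 0.0175%, 0.138%, 0.308% and 0.341% of probes. The number of DEPs per array, with both channels above background, was 220 at 30 min and 27 at 1 h in HCC1954, 14 and 26 for MDA-MB-231, 38 and 34 for MDA-MB-361, 300 and 657 for T-47D, and 271 and 90 for ZR-75-30. Among probes measured on both arrays of a line, the DEPs of T-47D that were down overlapped most. There 228 shared probes made up 97.0% of the 235 at 30 min and 50.8% of the 449 at 1 h. In HCC1954, of which the arrays come from 2 scan periods, 3 shared down probes made up 2.04% of 147 and 30.0% of 10. In MDA-MB-361, with both arrays in 1 scan period, 0 of 18 down probes at 30 min and 0 of 2 at 1 h were shared. The part of the scan period was not tested. With 1 array per line and time these counts have no replicate check.

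At each time alone, 25711 probes were tested at 30 min and 0 passed in either direction (0%), with 4226 at an unadjusted p under 0.05 (16.4%). Without MDA-MB-361, 1488 passed as higher and 2469 as lower, and with its 30 min array turned, 1015 and 2197. At 1 h 24833 probes were tested, of which 1 was higher (0.00403%) and 0 lower, with 2546 at an unadjusted p under 0.05 (10.3%). The probe called at 1 h was that of GIPR, the receptor of a gut hormone. It had a mean log2 ratio of 1.26 (SE 0.06, adjusted p = 0.00090 with limma) and already 1.41 at 30 min, so that the paired difference was -0.15. Without T-47D, 126 probes passed as higher and 15 as lower at 1 h. None of the immediate response genes passed at either time with all lines.

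The channels were then looked at one by one, because a gene that changes in both gives no log ratio. Levels are log2 processed signals relative to the 75th percentile of the array. Of the 24226 probes, 0 (0%) passed the adjusted threshold in either channel with limma. At an unadjusted p under 0.05, 2505 probes (10.3%) were found in the vehicle channel and 3511 (14.5%) in the BMP7 channel. Of the 134 immediate response genes, 29 (21.6%) were found in the vehicle channel, 23 higher and 6 lower at 1 h, and 39 (29.1%) in the BMP7 channel, 34 higher and 5 lower. Over all probes 4.96% were higher and 5.38% lower by this rule in the vehicle channel, and 6.82% higher and 7.67% lower in the BMP7 channel. In the vehicle channel 20 of 102 genes (19.6%) were higher at 1 h in 5 of 5 lines, against 3.63% of probes, and in the BMP7 channel 26 (25.5%), against 5.74%. Lower in 5 of 5 lines were 4 genes in the vehicle channel and 3 in the BMP7 channel, against 5.01% and 7.15% of probes. The vehicle signal of 6 of the 10 Kruppel-like factors measured in all lines was higher at 1 h in 5 of 5 lines.

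The vehicle-treated HCC1954 cells stood out. In HCC1954, 31 of 129 immediate response genes (24.0%) had at least 2-fold more vehicle signal at 1 h than at 30 min, against 5.12% of all probes. The shares were 2.46% against 3.17% in MDA-MB-231, 0.826% against 0.216% in MDA-MB-361, 0.833% against 0.791% in T-47D and 9.38% against 6.07% in ZR-75-30. FOSB, an AP-1 factor, differed in vehicle signal by 4.55 log2 units in HCC1954, 1.45 for MDA-MB-231, 0.72 for MDA-MB-361, 0.53 for T-47D and 0.66 for ZR-75-30. FOS differed by 2.80 in HCC1954 and by -1.09 to -0.19 in the other lines. In HCC1954 the vehicle signal of EGR2 was also higher by 5.10, of the orphan nuclear receptor NR4A1 by 3.87, of the matricellular CTGF by 3.14, of ATF3 by 2.70 and of DUSP1 by 1.92.

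The BMP7 channel of HCC1954 gave nearly the same differences, namely 4.62 for FOSB, 2.75 for FOS, 5.20 for EGR2, 3.97 for NR4A1, 2.86 for CTGF, 2.70 for ATF3 and 1.74 for DUSP1. At least 2-fold more BMP7 signal at 1 h was found for 27 immediate response genes of HCC1954 (20.9%, against 4.77% of probes), 4 of MDA-MB-231 (3.28% against 4.09%), 5 of MDA-MB-361 (4.13% against 0.195%), 0 of T-47D (0.513% of probes) and 13 of ZR-75-30 (10.2% against 5.67%). The log ratios of the 7 genes in HCC1954 differed little between the times, from -0.27 for CTGF to 0.10 for EGR2. ID2 differed by 2.24 in the vehicle channel and 2.46 in the BMP7 channel of HCC1954. The HCC1954 arrays come from 2 slides and 2 scan periods, and the part of these was not tested.

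**Figure D4:**
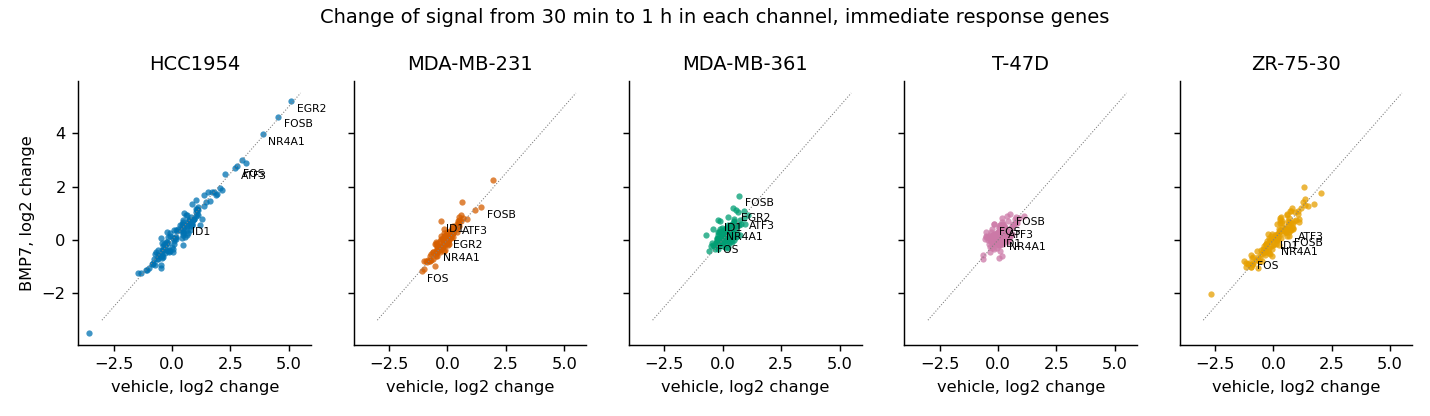
Change of the log2 signal from 30 min to 1 h in the vehicle channel (x axis) and in the BMP7 channel (y axis) of each immediate response gene (points), 1 panel per line, with the line of equal change dotted. In HCC1954 FOSB, EGR2, NR4A1, FOS and ATF3 lie high on the diagonal, with changes of 2.70 to 5.20 in both channels.

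The channels of ID1 differed between lines. In HCC1954 ID1 was higher at 1 h in both, by 0.60 in the BMP7 channel and 0.64 in the vehicle channel. In MDA-MB-231 ID1 differed by 0.71 log2 units in the BMP7 channel and -0.28 in the vehicle channel, and in MDA-MB-361 by 0.74 and -0.19. Over the lines, ID1 differed by 0.45 (SE 0.15) in the BMP7 channel and by 0.04 (SE 0.17) in the vehicle channel. SMAD7 differed by 0.53 (SE 0.21) in the BMP7 channel and by 0.19 (SE 0.20) in the vehicle channel, and ID3 by 0.50 (SE 0.28) and 0.17 (SE 0.28). ID2 differed by 0.94 (SE 0.32) in the BMP7 channel and 0.55 (SE 0.32) in the vehicle channel, with 2.24 for HCC1954, 0.60 for MDA-MB-231 and -0.14 to 0.17 for the other lines.

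The vehicle levels at 30 min and 1 h were finally set against the 20 later arrays, a comparison chosen after the values had been seen and made without a test. FOS in the vehicle channel of T-47D was at 0.69 at 30 min and 0.50 at 1 h, and then at -3.55 at 3 h and between -5.42 and -3.99 from 6 h on. The mean of both early arrays exceeded the mean of the 4 later arrays by 3.24 log2 units in HCC1954, 1.37 for MDA-MB-231, 3.71 for MDA-MB-361, 5.07 for T-47D and 2.31 for ZR-75-30. For FOSB the excess was 1.64 to 2.81, and for EGR1 0.78 to 3.33. An excess of at least 2-fold in 5 of 5 lines was found for 2 of the 134 tested immediate response genes, FOS and FOSB. In the list of EGR, NR4A, SRF and IER genes it was found for 0 of 15. The share of all probes with such an excess is not given here. Whether these counts are high or low for any set of probes therefore cannot be said. FOS was well above background in the vehicle channel on 27 of 30 arrays, FOSB on 22 and EGR1 on 30, so some later levels are not measured. For FOS this concerns T-47D, with 1 of its 4 later arrays above background, and for FOSB all lines but HCC1954, with 0 of 4 later arrays in MDA-MB-361. With such arrays set to the lowest signal above background where that was higher, the excess was at least 4.79 for FOS in T-47D, and for FOSB at least 2.69 in ZR-75-30, 1.51 in T-47D, 1.27 in MDA-MB-231 and 1.64 in MDA-MB-361. The 6 h array of MDA-MB-231 had the most outlier spots, 2741, and without it, an alternative chosen after seeing the data, the excess in that line was 1.69 for FOS and 1.20 for FOSB. At the same 4 later times the mean log2 BMP7/vehicle ratio of FOS was between -0.02 and 0.06.

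**Figure D5:**
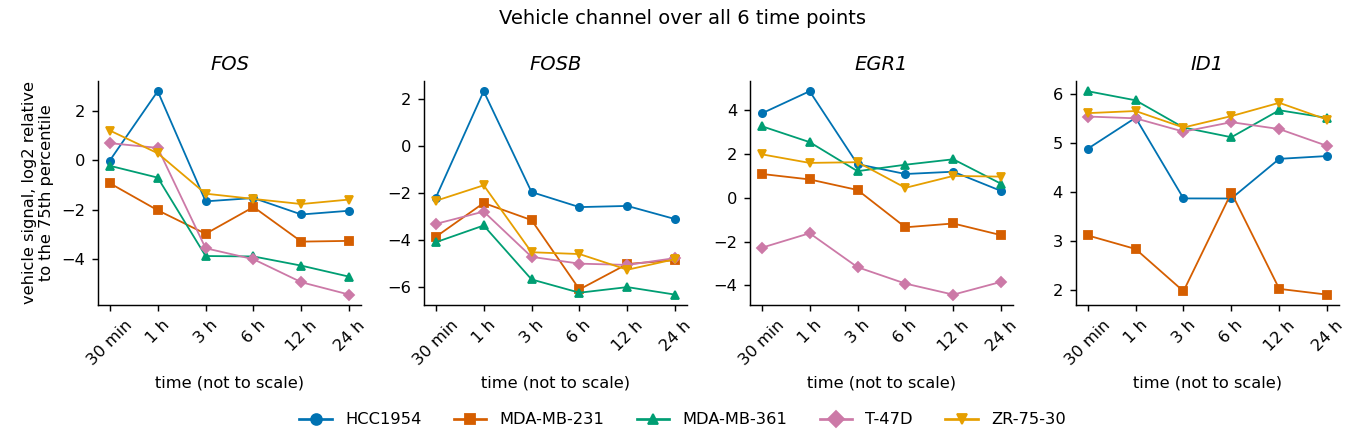
Log2 signal of the vehicle channel relative to the 75th percentile of the array (y axis, own scale per panel) at the 6 time points (x axis, not to scale) for FOS, FOSB, EGR1 and ID1, with 1 line per cell line. FOS and FOSB are higher at 30 min and 1 h than on average later in every line, with HCC1954 at 1 h on top, while the mean excess of ID1 was 0.47.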

How the data were processed

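Arrays were two-color Agilent whole human genome arrays of 5 cell lines given BMP7 or vehicle. The deposited scanner files hold, per the file headers, log10 ratios of Cy5 over Cy3 after background correction and a linear and lowess dye normalization in Feature Extraction, the processed intensities of each channel, and marks for outlier spots and for signal well above background. A table of log2 ratios by the authors served as an alternative.

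The log10 ratios were converted to log2 ratios of BMP7 over vehicle. Control spots, outlier spots and spots not well above background in both channels were dropped. Replicate spots were averaged by probe, and the array median was set to 0. Probes with both arrays of at least 3 lines entered a limma fit (version 3.58.1, R 4.3.3) of the within-line differences, with Benjamini-Hochberg adjustment over all probes and a threshold of 0.05. The fit was tested on simulated data. The pairs share the cell line, and the deviations of paired arrays from the mean of their time correlated at r from 0.17 to 0.62. Channels were scaled to the 75th percentile of each array and fitted in the same way. Precision is limited by the number of arrays and by signal over background.

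The genes and lists were chosen with earlier results of these data known. Each gene was read from its brightest tested probe in the vehicle channel. The genes named are those past the threshold, 16 fixed genes, those found by line counts, and the 5 probes of smallest p in each direction with the same sign in 5 of 5 lines. Others, such as those named for the vehicle channel, were chosen after their values were seen. Promoters come from RefSeq (GRCh38.p14). The alternatives were other signal filters, outlier spots kept, no centering, normexp (offset 50) with loess or centering, the deposited matrix, other blocks, moderation with trend, leaving out each line, subsets by scan period and, added after seeing the data, leaving out the 6 h array of MDA-MB-231 and turning the sign of the 30 min array of MDA-MB-361. Python 3.11.15 with numpy 2.4.6, pandas 2.3.3 and matplotlib 3.10.9 was used for the other calculations. Some genes of the lists are not reported here.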

Additional observations from a re-analysis of the deposited data

Results flagged for a closer look

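Among 88 sets of 5 values of the named genes, 5 had a single line far from the other 4. Chance would give about 1 in 20, so this count is about that of chance. The sets are listed as a description only. MDA-MB-231 stood above the other lines in the difference of the ID2 log ratio between 1 h and 30 min, at 0.79 against 0.22 to 0.34. T-47D stood above the others in the log ratio of MYC at 1 h, at 0.78 against -0.40 to -0.08. This holds for the brightest MYC probe, and the other MYC probe differed by -0.32 between 1 h and 30 min in T-47D. ZR-75-30 stood below the others in the log ratio of GATA3 at 1 h, at -0.077 against 0.19 to 0.23.

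In the vehicle channel, HCC1954 stood above the other lines in the difference between 1 h and 30 min of FOS, at 2.80 against -1.09 to -0.19, and of ATF3, at 2.70 against 0.20 to 0.90.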

How the results depend on the processing

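The count of 0 probes past the threshold between 1 h and 30 min held under all 21 alternatives, and so did the count of 0 immediate response genes. Without the replicate block, with the arrays as unpaired groups, it was also 0, with 326 probes at an unadjusted p under 0.05, and the range over the alternatives was 39 (trend and robust) to 3785 (pairs that span the scan periods). The estimated block correlation of -0.96 for slides leaves that fit of little use. At 30 min the number of probes past the threshold was 0 to 3957 when each line was left out, the highest without MDA-MB-361, and 3212 with the 30 min array of MDA-MB-361 turned in sign, an alternative chosen after seeing the data. At 1 h it was 1 to 141 when each line was left out, the highest without T-47D, and 2 without a signal filter and 3 after normexp and loess. In the pairs that span the scan periods 7 probes passed in the vehicle channel and 3 in the BMP7 channel. The median difference of the immediate response genes was 0.03, and -0.020 in the pairs that span the scan periods. That of the BMP-SMAD list was 0.08, and -0.010 with the 30 min array of MDA-MB-361 turned. The median number of DEPs per array was 220 at 30 min and 34 at 1 h, 684 and 314 without a signal filter, and 97 and 19 after normexp and loess. The cause of these shifts was not tested.

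Of the 23 genes followed over the alternatives, 17 kept their sign in all. KLF10 was -0.039 in the pairs that span the scan periods, and leaving out lines gave -0.098 to 0.17 for KLF10, -0.048 to 0.22 for JUN and -0.013 to 0.25 for EGR1. DUSP1 was 0.071 after normexp and loess, 0.13 after normexp and median shift, and 0.029 both in the pairs within 1 scan period and with scan period as a term, 0.093 with that array turned, and -0.12 to 0.079 when lines were left out. MYC was 0.0010 after normexp and median shift, 0.085 within 1 scan period and with the scan period term, 0.084 over all its probes, and -0.24 to 0.080 when lines were left out. ATF3 was 0.085 after normexp and loess, 0.17 after normexp and median shift, 0.081 within 1 scan period and with the scan period term, 0.14 over all its probes, 0.047 with that array turned, and -0.075 to 0.093 when lines were left out.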

Other observations

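The probes outside the gene lists with the smallest p and the same direction in 5 of 5 lines are given as a description, since all had an adjusted p of 1.00 with limma. Higher at 1 h were CYB561D1 by a mean of 0.64 (0.12 to 1.04 over the lines), POFUT2, a protein O-fucosyltransferase, by 0.41 (0.25 to 0.61), ANKRD11, a chromatin regulator, by 0.86 (0.15 to 1.75), EMILIN1, an extracellular matrix glycoprotein, by 0.49 (0.08 to 1.04), and PSMD8, a proteasome subunit, by 0.34 (0.18 to 0.58). POFUT2, EMILIN1 and PSMD8 had mean log ratios of -0.35, -0.45 and -0.33 at 30 min and of 0.06, 0.05 and 0.01 at 1 h, so that their differences were a return to about 0. For PSMD8 and POFUT2 this rests in part on the 30 min array of MDA-MB-361. PSMD8 was at -0.45 on it and at -0.19 at 1 h in that line, and POFUT2 at -0.32 and 0.29. With the sign of that array turned, neither would be higher at 1 h in MDA-MB-361.

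Lower at 1 h were VPS13D with a mean difference of -0.36 (-0.52 to -0.16 over the lines), LOC728688 with -0.54 (-1.24 to -0.12), the interferon-induced IFIT2 with -0.57 (-0.995 to -0.0014), the zinc finger gene ZNF562 with -0.31 (-0.46 to -0.08) and BET1, a vesicle SNARE, with -0.31 (-0.55 to -0.12). IFIT2 was close to no difference in HCC1954 and at -0.97 in T-47D. LOC728688 had a log ratio of 1.11 on the 30 min array of MDA-MB-361 and 0.43 at 1 h in that line. With the sign of that array turned, LOC728688 would be higher at 1 h there.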
